A study of Bos taurus and Bos indicus with 12 samples.

Results

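The keratins of the living epidermis and of wounded or follicular epithelium, KRT5, KRT14, KRT15, KRT10, KRT17 and KRT6B, were followed in the skin of cattle exposed to the cattle tick Rhipicephalus microplus. Members were all probe sets whose platform annotation gave only that gene symbol. They came to 8 probe sets of 6 genes, among 24016 probe sets tested and 9155 genes with a symbol. KRT5 and KRT15 each had 2 probe sets and the other genes 1 each.

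Whole skin was taken by biopsy punch from 12 female animals and each RNA was hybridised to its own Affymetrix bovine array, 3 animals per group. Infested Holstein-Friesian animals (a taurine dairy breed) and infested Brahman animals (an indicine breed known for resistance to this tick) were 6 months old, had been heavily challenged with the tick several times over, and were sampled where larvae were attached. Naive Holstein-Friesian animals, 12 months old, and naive Brahman animals, 18 months old, had never met the tick. Infestation and age therefore cannot be told apart within a breed, and neither can age and breed among the naive animals. The values are the authors' expression values on the log2 scale, so a difference of 1 is a doubling of signal, and each probe set is compared only with itself across arrays.

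Keratins are the filament proteins of epithelial cells, and they work as pairs of a type I and a type II chain. Basal keratinocytes make KRT5 with KRT14, and KRT15 marks basal cells and the follicle bulge in humans and mice. Cells that leave the basal layer replace these with KRT1 and KRT10. KRT17 is a keratin of the hair follicle and other appendages, and KRT6 chains, normally restricted to follicle and appendage epithelium, are induced with KRT16 and KRT17 in epidermis at a wound edge.

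All 12 arrays gave strong signal for the labelled tissue. The brighter KRT5 probe set was in the top 1% of signals of its array in every animal, and so were KRT14 and KRT10. At such levels an array has little room to show a rise, so the small differences of these 3 probe sets are read with that limit. RNA integrity differed between arrays. An index of signal from the 5′ against the 3′ end of 5 control transcripts was -4.91 in infested Brahman 1 and -2.73 in infested Holstein-Friesian 1, the lowest values, and lay between -2.56 and -0.75 in the other infested animals and between -1.39 and -0.82 in the naive animals. By breed, the index ran from -4.91 to -2.07 in infested and from -1.04 to -0.85 in naive Brahman animals, without overlap. Infestation and RNA integrity therefore cannot be told apart in Brahman animals. In Holstein-Friesian animals the ranges overlapped, at -2.73 to -0.75 and -1.39 to -0.82. In whole skin, fewer cells of a type and less RNA per cell cannot be told apart.

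KRT6B was higher in infested than in naive Brahman skin, and it was the only member probe set to pass the test in any of the 5 planned comparisons. The basal and suprabasal keratins KRT5, KRT14, KRT15 and KRT10 passed in none, nor did KRT17. In infested against naive Holstein-Friesian animals, 0 of the 8 probe sets passed (limma), against 5.02% of all probe sets, and 0 had an unadjusted p under 0.05, against 21.6%. In infested against naive Brahman animals 1 of the 8 passed, against 19.8% of all probe sets, and 2 had an unadjusted p under 0.05 (KRT6B and KRT5 on 1 probe set), against 34.7%. The median size of the difference over the 8 was 0.14 in Holstein-Friesian and 0.15 in Brahman animals, and over all probe sets 0.24 and 0.33.

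**Figure D1:**
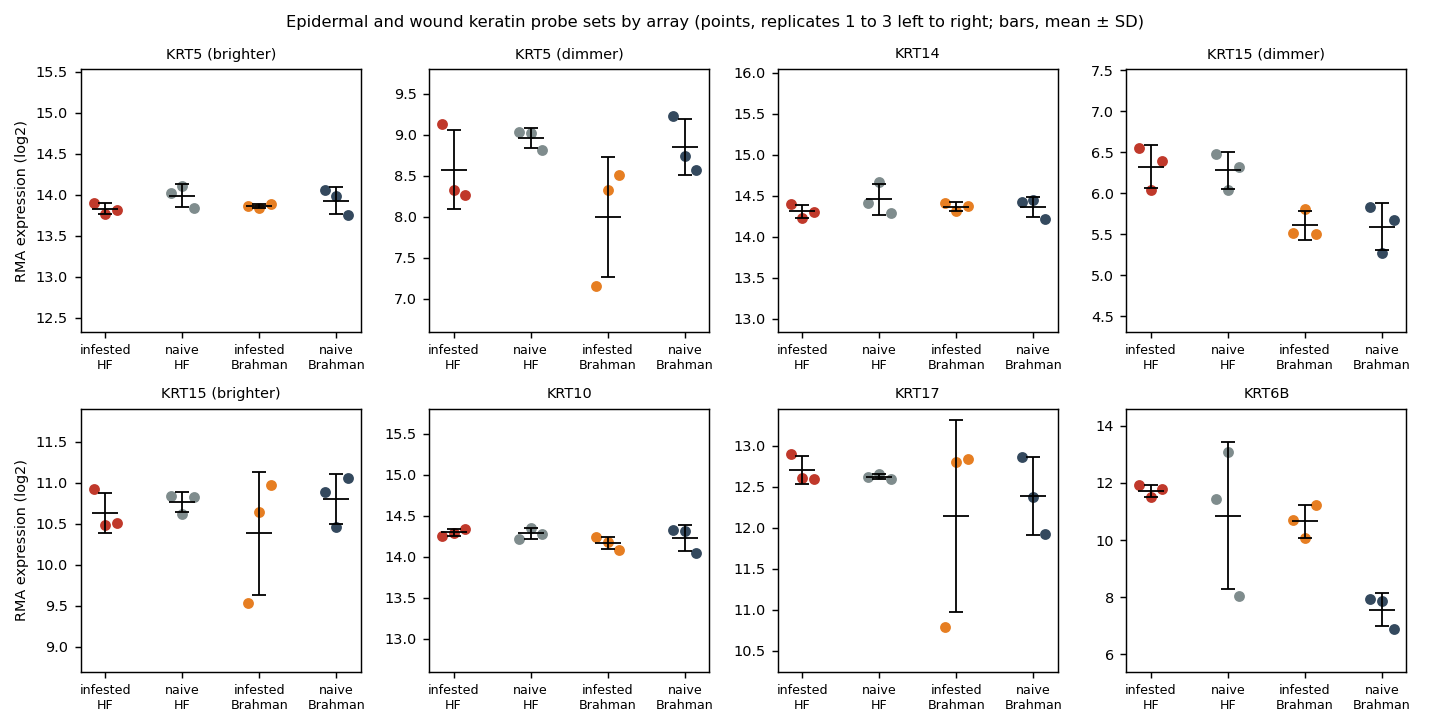
Log2 expression of the 8 keratin probe sets in each array, with points for replicates 1 to 3 and bars for mean ± SD (n = 3; HF, Holstein-Friesian). Panels have their own level and the KRT6B panel has a wider scale: KRT6B lies between 10.05 and 11.22 in infested Brahman animals and between 6.89 and 7.92 in naive ones, while the brighter KRT5 probe set, KRT14 and KRT10 span less than 0.5 over all 12 arrays.

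KRT5, the type II chain of basal cells, was read by 2 probe sets, called the brighter and the dimmer here by their mean signal. On the brighter it measured 13.90, 13.77 and 13.81 in infested Holstein-Friesian animals, against 14.02, 14.11 and 13.84 in naive ones. In Brahman animals it measured 13.86, 13.84 and 13.89 when infested, against 14.05, 13.99 and 13.75 when naive. The infested and naive values overlapped in both breeds. The differences were -0.16 ± 0.13 (SE; adjusted p = 0.508, limma) in Holstein-Friesian and -0.06 ± 0.13 (adjusted p = 0.759) in Brahman animals.

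On the dimmer probe set KRT5 measured 9.13, 8.33 and 8.27 in infested against 9.04, 9.02 and 8.82 in naive Holstein-Friesian animals. It measured 7.16, 8.33 and 8.51 in infested against 9.24, 8.75 and 8.57 in naive Brahman animals. Every infested Brahman value was below every naive one, and infested Brahman 1, the array of lowest integrity index, was lowest of the 12. The Brahman difference was -0.85 ± 0.34 (SE; unadjusted p = 0.0306, adjusted p = 0.103, limma), and it was -0.44 (adjusted p = 0.287) without that array. The Holstein-Friesian difference was -0.38 ± 0.34 (adjusted p = 0.565). It was -0.66 (adjusted p = 0.04) when both arrays of lowest index were left out, where 17% of all probe sets passed.

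KRT14, the type I partner of KRT5, measured 14.39, 14.23 and 14.30 in infested against 14.41, 14.67 and 14.30 in naive Holstein-Friesian animals. In Brahman animals it measured 14.41, 14.31 and 14.38 when infested, against 14.42, 14.44 and 14.22 when naive. The groups overlapped, and the differences were -0.15 ± 0.13 (SE; adjusted p = 0.566, limma) and 0.01 ± 0.13 (adjusted p = 0.979). KRT14 and the brighter KRT5 probe set kept the same order at the ends: both were highest in naive Holstein-Friesian 2 and lowest in naive Brahman 3. Of all other genes, KRT14 had the profile nearest to that of KRT5 over the 12 arrays, and KRT5 the nearest to that of KRT14, with a root mean square difference of 0.05 log2 after each profile was centred on its own mean. The next nearest to KRT5 was CCL3, a chemokine, at 0.07, then CRTC1 at 0.08. The next nearest to KRT14 was GHR, the growth hormone receptor, at 0.07, then KLHL12 at 0.08. CCL3, CRTC1, GHR and KLHL12 have other probe sets as well, and the whole spread of KRT14 over the 12 arrays was 0.12 (SD), so small profile differences are common at this scale. The CCL3 and GHR probe sets also lay below every array median, at 4.49 to 4.81 and 3.73 to 4.08.

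KRT15, a further type I keratin of basal cells, was read by 2 probe sets that differed in what they showed. The dimmer measured 5.51, 5.81 and 5.50 in infested Brahman against 6.55, 6.04 and 6.39 in infested Holstein-Friesian animals. Naive animals showed the same split, with 5.83, 5.28 and 5.67 in Brahman against 6.48, 6.04 and 6.32 in Holstein-Friesian animals. All 6 Brahman values were below all 6 Holstein-Friesian values. The difference, Brahman minus Holstein-Friesian, was -0.72 ± 0.19 (SE; unadjusted p = 0.00345, adjusted p = 0.206, limma) in infested animals, and -0.69 ± 0.19 (unadjusted p = 0.00457, adjusted p = 0.505) in naive animals. Averaged over both, in a comparison added after the values were seen, it was -0.70 ± 0.14 (adjusted p = 0.0939), and 0.416% of all probe sets separated the breeds as cleanly. In that averaged comparison 0.137% of all probe sets passed. Without the arrays of lowest index this adjusted p (limma) was 0.0485, in a fit where many more probe sets passed. The signal was weak: the values of 5.28 to 6.55 lay below the median of every array. A filter on the lowest 40 percent of mean signal removed this probe set.

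The brighter probe set of KRT15 gave no such split. It measured 9.53, 10.64 and 10.97 in infested Brahman against 10.92, 10.48 and 10.50 in infested Holstein-Friesian animals, and 10.89, 10.46 and 11.05 in naive Brahman against 10.84, 10.62 and 10.82 in naive Holstein-Friesian animals. The breed differences were -0.25 ± 0.31 (SE; adjusted p = 0.748, limma) in infested and 0.04 ± 0.31 (adjusted p = 1) in naive animals. The probe sets of 1 gene thus disagreed about a breed difference, and sequence differences between the breeds under the probes were not tested. Neither probe set passed for infestation: the differences lay between -0.42 and 0.05 over both breeds and probe sets, with adjusted p between 0.368 and 0.967. The -0.42 of the brighter probe set in Brahman animals was 0.00 without infested Brahman 1. The profiles nearest to the brighter probe set were those of ZNF592 at 0.14, KAT14 at 0.15 and GNA11, a G protein subunit, at 0.16 (root mean square difference, log2). GNA11 has another probe set as well.

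KRT10, the type I keratin of cells that have left the basal layer, measured 14.25, 14.30 and 14.34 in infested against 14.22, 14.35 and 14.28 in naive Holstein-Friesian animals. In Brahman animals it measured 14.24, 14.19 and 14.09 when infested, against 14.32, 14.32 and 14.05 when naive. The groups overlapped in both breeds and the differences were 0.01 ± 0.12 (SE; adjusted p = 0.971, limma) and -0.06 ± 0.12 (adjusted p = 0.76). The 95% interval in Holstein-Friesian animals ran from -0.25 to 0.28. The values of all infested Brahman animals lay just below those of all infested Holstein-Friesian animals, by -0.13 ± 0.12 (adjusted p = 0.658). The nearest profiles were those of GHRHR at 0.05, SRP68, a part of the signal recognition particle, at 0.05, and RGS19 at 0.07. GHRHR measured only 3.23 to 3.57, below every array median. The SRP68 probe set measured 13.98 to 14.36, near the level of KRT10, with as little room to show a rise. GHRHR, SRP68 and RGS19 have other probe sets as well. KRT10 itself varied by 0.10 (SD over 12 arrays), so small profile differences are common here too.

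KRT17, the follicle and wound keratin of type I, measured 12.90, 12.61 and 12.60 in infested against 12.63, 12.66 and 12.59 in naive Holstein-Friesian animals. In Brahman animals it measured 10.80, 12.81 and 12.84 when infested, against 12.87, 12.38 and 11.92 when naive. Infested Brahman 1 was the lowest array at 10.80, the next being naive Brahman 3 at 11.92, and the remaining infested Brahman arrays lay at the upper end of the naive range. The differences were 0.08 ± 0.45 (SE; adjusted p = 0.945, limma) in Holstein-Friesian and -0.24 ± 0.45 (adjusted p = 0.741) in Brahman animals, where the value was 0.43 (adjusted p = 0.215) without infested Brahman 1. The nearest profiles were those of PLCD1, a phospholipase, at 0.18, MARK2, a kinase, at 0.22 and TAPBP, of antigen loading, at 0.22. They were lowest in infested Brahman 1 as well, at 7.90, 6.60 and 8.17, as were the dimmer KRT5 and the brighter KRT15 probe sets. How far the RNA of that array set these values was not tested. MARK2 has other probe sets as well.

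KRT6B, the type II chain induced in epidermis at wound edges, measured 11.92, 11.50 and 11.78 in infested Holstein-Friesian animals, and 10.69, 10.05 and 11.22 in infested Brahman animals. In naive Holstein-Friesian animals it measured 11.45, 13.08 and 8.03, and in naive Brahman animals 7.92, 7.86 and 6.89. Every infested Brahman value was over 2 log2 above every naive Brahman value. Naive Holstein-Friesian animals lay on both sides of the infested ones of their breed: replicate 2 was above all of them, replicate 1 just below, and replicate 3 at the level of naive Brahman skin.

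The Brahman difference was 3.10 ± 0.95 (SE; 95% interval 1.01 to 5.19; adjusted p = 0.0422, limma), an 8.55-fold higher signal. The SE rests on a spread estimate shared by all 4 groups. The SD of KRT6B was 2.58 in naive Holstein-Friesian animals and 0.21 to 0.58 in the other groups. The SEs, intervals and p-values of KRT6B (limma) therefore do not measure the spread of only the groups compared. The Holstein-Friesian difference was 0.88 ± 0.95 (adjusted p = 0.642). It was 1.99 without naive Holstein-Friesian 2 and turned to -0.53 without naive Holstein-Friesian 3. The breeds were not shown to differ in this effect: the difference between the differences was 2.22 ± 1.34 (unadjusted p = 0.127, adjusted p = 0.688). It was 1.10 without naive Holstein-Friesian 2 and 3.63 without naive Holstein-Friesian 3, and 0.00416% of all probe sets passed that comparison. Of the 8 member probe sets 0 passed it (limma) and 0 had an unadjusted p under 0.05, against 7.46% of all. Averaged over breeds, a comparison added after the values were seen, KRT6B was higher in infested animals by 1.99 ± 0.67 (adjusted p = 0.0476), where 27.9% of all probe sets passed. This call was lost with the replicate block (adjusted p = 0.0536), with the integrity index as a covariate (0.153), without both arrays of lowest index (0.0867), and when any 1 array was left out except naive Holstein-Friesian 2 or 3 (up to 0.104).

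The Brahman call was near the threshold. It was lost with the integrity index as a covariate (3.23, adjusted p = 0.204), without both arrays of lowest index (3.08, adjusted p = 0.0693), and when any 1 array was left out except naive Holstein-Friesian 2, naive Holstein-Friesian 3 or infested Holstein-Friesian 1 (2.76 to 3.40, adjusted p between 0.0034 and 0.137 over all 12). With only the 6 Brahman arrays in the fit the adjusted p was 0.00686; the naive Holstein-Friesian values do not enter that fit.

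**Figure D2:**
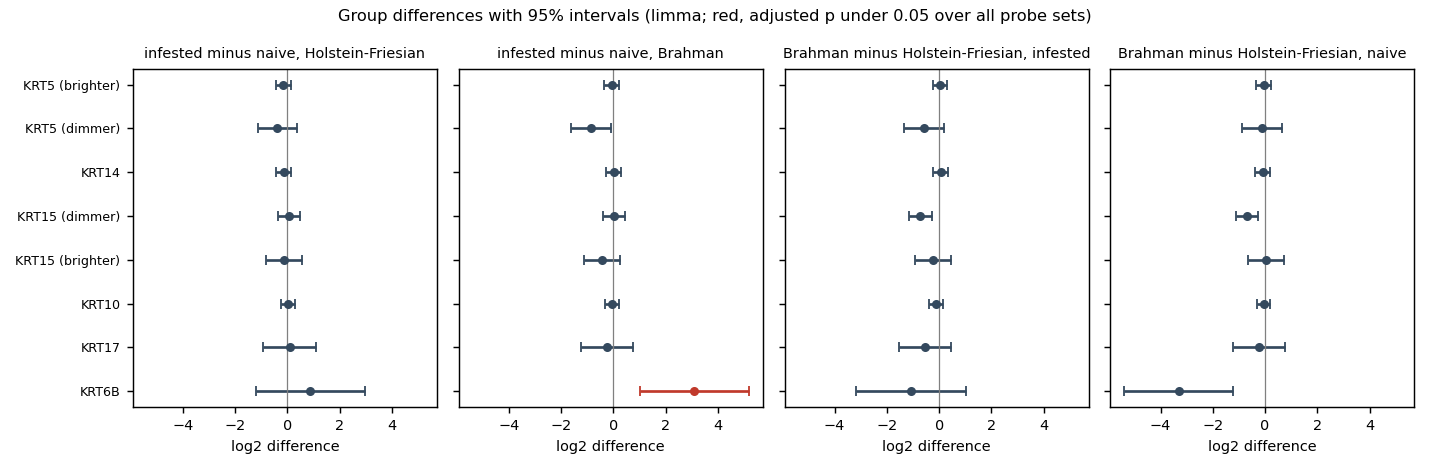
Log2 differences of the 8 keratin probe sets in 4 comparisons of 3 against 3 arrays, with 95% intervals from limma. The intervals use a spread estimate shared by all 4 groups. The red point is KRT6B in infested minus naive Brahman animals (3.10, adjusted p = 0.0422); its interval in Holstein-Friesian animals runs from -1.21 to 2.97.

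Between breeds, KRT6B was lower in infested Brahman than in infested Holstein-Friesian animals by value, -1.08 ± 0.95 (SE; adjusted p = 0.636, limma), with no overlap. This SE includes the wide spread of the naive Holstein-Friesian animals, which are not in the comparison. In naive animals the difference was -3.30 ± 0.95 (unadjusted p = 0.0052, adjusted p = 0.521), again with no overlap, because the lowest Holstein-Friesian value of 8.03 was above the highest Brahman value of 7.92. It was -4.71 (adjusted p = 0.0113) without naive Holstein-Friesian 3 and -2.18 without naive Holstein-Friesian 2, and the adjusted p went up to 1 with 1 array left out. Of the 8 probe sets, 0 passed either breed comparison, against 0.167% of all probe sets in infested and 0.025% in naive animals. With an unadjusted p under 0.05 there was 1 in infested animals (the dimmer KRT15 probe set), against 13% of all, and 2 in naive animals (the same probe set and KRT6B), against 4.78%. Counted by groups that did not overlap, the members were 3 of 8 in infested animals (the dimmer KRT15 probe set, KRT10 and KRT6B), against 13.4% of all probe sets. They were 2 of 8 in naive animals (that KRT15 probe set and KRT6B), against 14.5%. For infestation they were 2 of 8 in Brahman animals (KRT6B and the dimmer KRT5 probe set), against 38.5%, and 0 of 8 in Holstein-Friesian animals, against 30.3%.

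The order of the KRT6B group means was infested Holstein-Friesian (11.73 ± 0.21), naive Holstein-Friesian (10.85 ± 2.58), infested Brahman (10.65 ± 0.58) and naive Brahman (7.56 ± 0.58; SD, n = 3 each). Naive Holstein-Friesian and infested Brahman, neighbours in that order, differed by far less than the spread among naive Holstein-Friesian animals. In the RefSeq gene table for the ARS-UCD2.0 assembly KRT6B lies between KRT6A and KRT6C, close relatives in humans. No tested probe set carried either symbol, so whether the KRT6B probe set also reads them was not tested.

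KRT6B was chosen partly for its spread, so the spread is described without a test. Over the 6 infested animals it ran from 10.05 to 11.92, a range of 1.86, and over the 6 naive animals from 6.89 to 13.08, a range of 6.19. A naive range as large was found in 0.025% of all probe sets. The SD within groups, pooled over the breeds, was 4.26 times as large in naive as in infested animals, and 0.583% of probe sets had a ratio as large. Most probe sets went the other way: the median ratio was 0.64 and 74.0% had the larger pooled SD in infested animals.

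The excess lay in Holstein-Friesian animals. Their KRT6B SD was 0.21 when infested and 2.58 when naive, a ratio of 12.1, as large in 0.387% of probe sets. In Brahman animals the SD was 0.58 when infested and 0.58 when naive. Among naive Holstein-Friesian animals only 5 probe sets had a larger SD than KRT6B: those of BOLA (4.15) and BOLA-N (3.25), genes of the major histocompatibility complex, of GSTA2 (3.22), a glutathione transferase, and 2 with no symbol. With naive Holstein-Friesian 3 left out the pooled ratio was 2.07, and with infested Brahman 2 left out it was 6.12.

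**Figure D3:**
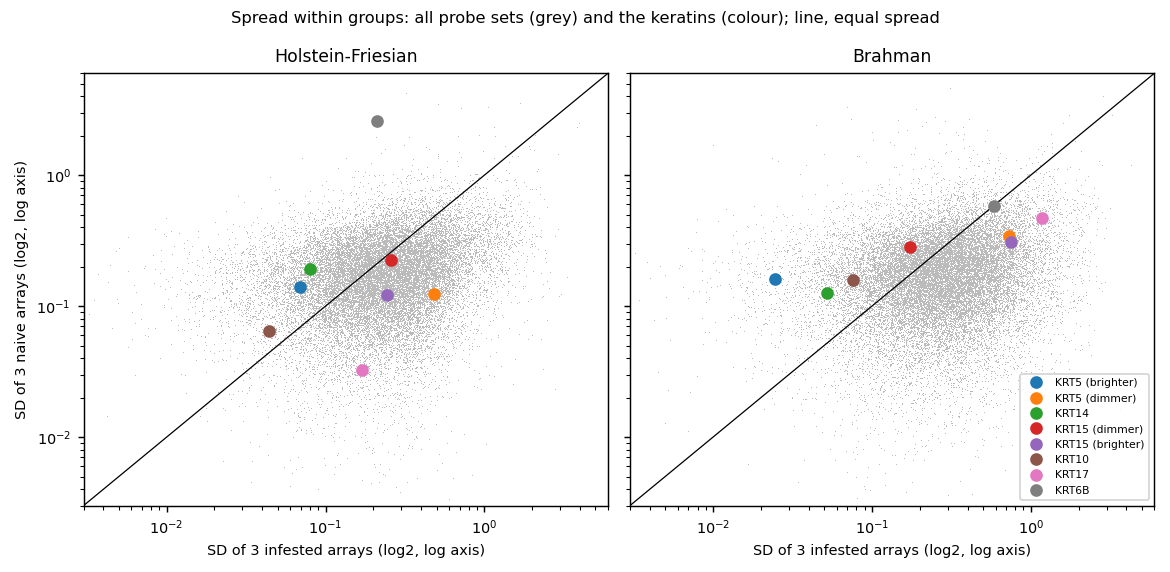
Standard deviation over the 3 naive arrays (log axis, log2 units) against that over the 3 infested arrays (log axis) for every probe set (grey) and the keratins (coloured), by breed; the line marks equal spread. KRT6B lies far above the line in Holstein-Friesian animals (0.21 infested, 2.58 naive) and on it in Brahman animals (0.58 in both).

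The other keratins of the set differed among themselves in spread. The brighter KRT5 probe set, KRT14 and KRT10 were also less spread in infested than in naive animals, with naive over infested ratios of 2.90, 2.38 and 1.94, on spreads of no more than 0.19. The dimmer KRT5 probe set, the brighter KRT15 probe set and KRT17 were more spread in infested animals, with ratios of 0.42, 0.42 and 0.40, and infested Brahman 1 was the lowest array for all 3. The dimmer KRT15 probe set had a ratio of 1.16. KRT6B shared its extreme arrays with the bright basal and suprabasal probe sets, since the brighter KRT5 probe set, KRT14, KRT10 and KRT6B were all highest in naive Holstein-Friesian 2 and lowest in naive Brahman 3.

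The genes whose profiles were nearest to KRT6B were PTGR1, a prostaglandin reductase, TNC, the matrix protein tenascin-C, and GAS7, at 1.17, 1.23 and 1.28 log2. These distances exceeded those for the other keratins, but the measure grows with a gene's own spread. That spread (SD over the 12 arrays) was 2.02 for KRT6B and 0.10 to 0.59 for the other member probe sets compared in this way. TNC measured 10.00, 9.28 and 8.56 in infested against 7.13, 7.75 and 7.91 in naive Brahman animals, and 10.57, 10.09 and 9.93 in infested against 9.07, 10.18 and 8.99 in naive Holstein-Friesian animals. The difference between infested and naive Brahman animals was 1.69 ± 0.40 (SE) for TNC, 1.71 ± 0.51 for GAS7 and 1.69 ± 0.60 for PTGR1. These genes were picked for their likeness to KRT6B over the same 12 arrays, so their differences between groups describe that choice and are no separate evidence. PTGR1 and TNC have other probe sets as well, which are not described here.

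S100A8, S100A9 and S100A12, calcium-binding proteins of neutrophils and of activated keratinocytes, were looked at after their values were seen. They belong to a list of 13 measured genes of activated keratinocytes counted below, and they do not stand for it. The median difference of that list was -0.09 in Brahman and 0.77 in Holstein-Friesian animals. S100A9 measured 10.74, 10.91 and 8.85 in infested against 11.74, 11.20 and 9.49 in naive Brahman animals, and 11.05, 10.57 and 11.23 in infested against 12.13, 12.81 and 10.95 in naive Holstein-Friesian animals. Like KRT6B it was highest in naive Holstein-Friesian 2, but its lowest array was infested Brahman 3. Its differences were -0.65 ± 0.67 (SE; adjusted p = 0.53, limma) in Brahman and -1.01 ± 0.67 (adjusted p = 0.42) in Holstein-Friesian animals, below 0 where those of KRT6B were above it.

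**Figure D4:**
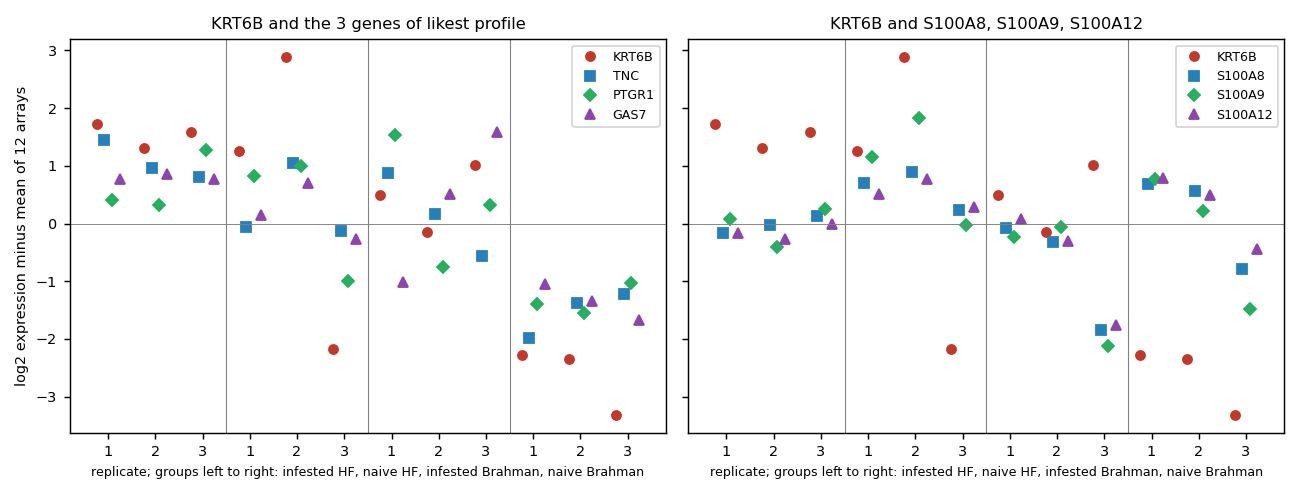
Log2 expression minus the gene's mean over 12 arrays, by array, for KRT6B with TNC, PTGR1 and GAS7 (left) and with S100A8, S100A9 and S100A12 (right; HF, Holstein-Friesian). KRT6B and the 3 genes of nearest profile are low in naive Brahman animals, while the S100 genes are above their means in naive Brahman 1 and 2.

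Among the other keratins, 18 probe sets of 12 genes, the ones that passed were of simple and glandular epithelium. In each breed 1 probe set rose and 3 fell with infestation, where 2.68% of all probe sets rose and 2.34% fell in Holstein-Friesian animals and 9.54% rose and 10.2% fell in Brahman animals. KRT19, a keratin of simple and ductal epithelia, measured 9.11, 9.55 and 10.47 in infested against 12.92, 11.54 and 12.67 in naive Brahman animals. It measured 10.04, 9.46 and 9.69 in infested against 12.30, 11.14 and 12.33 in naive Holstein-Friesian animals. The groups did not overlap, and KRT19 fell by 2.66 ± 0.45 (SE; adjusted p = 0.00347, limma) in Brahman and by 2.19 ± 0.45 (adjusted p = 0.024) in Holstein-Friesian animals.

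KRT7 fell by 2.08 (adjusted p = 0.00102, limma) in Brahman and by 1.83 (adjusted p = 0.00693) in Holstein-Friesian animals, and KRT18 by 2.34 (adjusted p = 0.00156) and by 1.58 (adjusted p = 0.0248). In Holstein-Friesian animals the calls of KRT18 and KRT19 were lost when naive replicate 1 or 3 or infested replicate 2 or 3 was left out, with adjusted p up to 0.101 and 0.0979. In Brahman animals KRT19 was at -2.44 (adjusted p = 0.0502) with the integrity index as a covariate. KRT23 on the brighter of its 2 probe sets rose by 0.94 (adjusted p = 0.0229) in Brahman and by 1.37 (adjusted p = 0.016) in Holstein-Friesian animals, but the dimmer gave -1.74 (adjusted p = 0.0739) and 0.49 (adjusted p = 0.706). The brighter probe set's Brahman value was 0.66 (adjusted p = 0.288) with the index as a covariate, and its adjusted p was up to 0.0763 without naive Brahman 1 or 2. In Holstein-Friesian animals its call was lost without naive replicate 1 or infested replicate 3, with adjusted p up to 0.0651. KRT25, a keratin of the follicle's inner root sheath, differed by 0.69 (adjusted p = 0.0705) and 0.61 (adjusted p = 0.179). KRT3, KRT4, KRT8, KRT20, KRT76, KRT78 and KRT79 passed in neither breed. Some of these were weak throughout: KRT8 measured 4.75 to 5.48, KRT20 3.28 to 4.07, KRT4 4.64 to 5.39 and KRT76 4.65 to 5.67. Signals so far below every array median leave little room to show a fall.

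**Figure D5:**
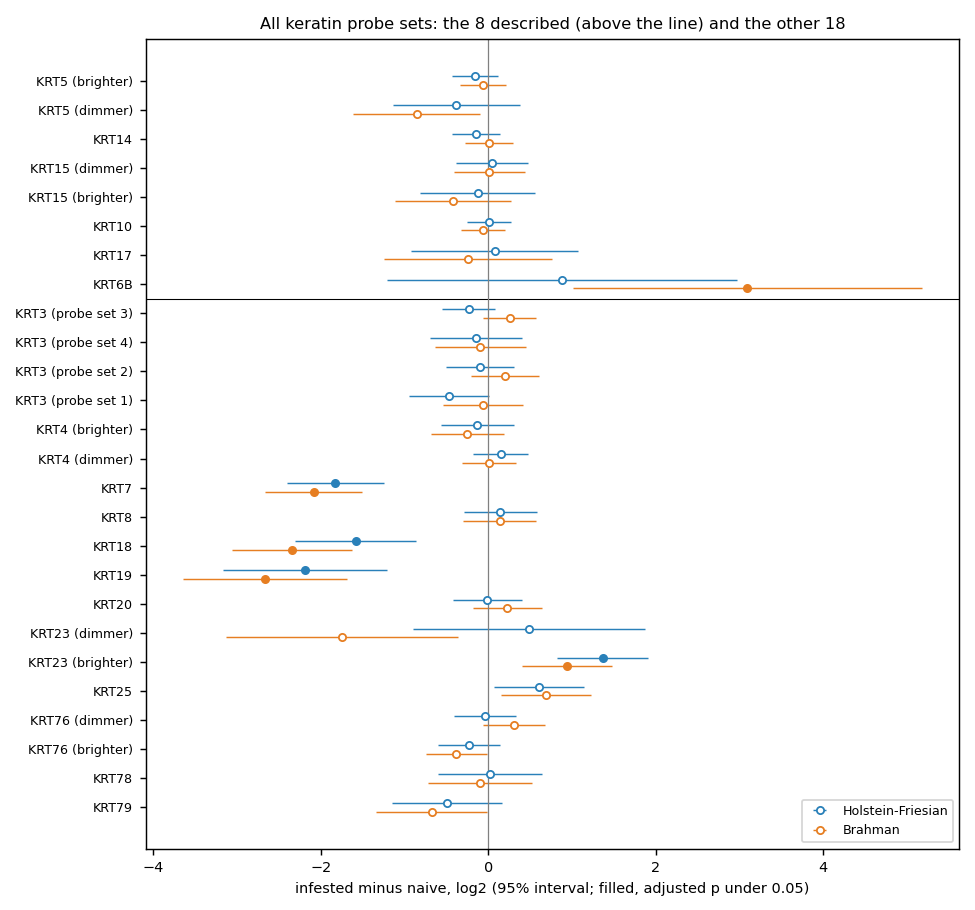
Infested minus naive difference (log2, 95% interval from limma) for the 8 keratin probe sets described (above the line) and the 18 others, in Holstein-Friesian and Brahman animals; filled points have an adjusted p under 0.05. KRT7, KRT18 and KRT19 are lower in infested animals of both breeds, KRT6B is higher in Brahman animals, and the brighter KRT5 probe set, KRT14 and KRT10 lie between -0.16 and 0.01.

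Genes of the layers and states these keratins mark were counted in 5 lists. The lists are named for epithelial layers and states, but which cells of the whole-skin punch gave the signals was not tested. Their counts stand against the same shares of all probe sets, 2.68% higher and 2.34% lower in Holstein-Friesian and 9.54% higher and 10.2% lower in Brahman animals. Of 13 measured genes of activated keratinocytes, 3 rose and 0 fell in infested Holstein-Friesian animals, and 1 rose and 1 fell in infested Brahman animals, with median differences of 0.77 and -0.09 against -0.03 and 0.04 over all probe sets. Without both arrays of lowest index, 5 rose and 0 fell in Holstein-Friesian and 0 rose and 1 fell in Brahman animals, where 17% and 26% of all probe sets passed in either direction. The growth factor AREG rose by 1.99 (adjusted p = 0.038, limma), the gelatinase MMP9 by 1.14 (adjusted p = 0.0339) and the interleukin 1 antagonist IL1RN by 1.10 (adjusted p = 0.0424) in Holstein-Friesian animals. AREG had an adjusted p of 0.0523 with the replicate block. Over all alternatives other than leaving out 1 array, adjusted p (limma) was up to 0.0633 for AREG, 0.0721 for IL1RN and 0.0439 for MMP9. In Brahman animals IL1RN rose by 0.91 (adjusted p = 0.0369) and the transcription factor STAT3 fell by 1.38 (adjusted p = 0.0462). IL1RN was at 0.76 (adjusted p = 0.0911) without infested Brahman 1. Its adjusted p (limma) in Brahman animals was up to 0.285 over the alternatives other than leaving out 1 array. Single arrays decided these calls: leaving out 1 array at a time, AREG was lost in 7 of 12 fits, MMP9 in 6, IL1RN in 9 in Holstein-Friesian and in 7 in Brahman animals, and STAT3 in 8. STAT3 was at -0.18 with the index as a covariate and at -0.93 without infested Brahman 1.

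Of 6 measured genes of basal adhesion, 0 passed in Holstein-Friesian animals and 3 fell in Brahman animals, with medians of 0.08 and -0.54. Without both arrays of lowest index 2 fell in Holstein-Friesian and 3 in Brahman animals. The integrin chain ITGB4 fell by 1.35 (adjusted p = 0.036, limma) and ITGA3 fell by 0.86 (adjusted p = 0.0267), chains that join basal cells to the basement membrane, and the tetraspanin CD9 fell by 0.84 (adjusted p = 0.0238). With the integrity index as a covariate none of the 3 passed, at -0.52 (adjusted p = 0.559), -0.50 (0.377) and -0.42 (0.398), and ITGB4 was at -0.75 without infested Brahman 1. Of 5 measured genes of the cornified envelope and barrier, 0 passed in Holstein-Friesian animals and 2 fell in Brahman animals, with medians of 0.19 and -0.37. Without both arrays of lowest index 1 rose in Holstein-Friesian and 2 fell in Brahman animals. ELOVL4, an enzyme of very long fatty acids, fell by 0.60 (adjusted p = 0.019, limma) and the transcription factor GRHL1 fell by 0.74 (adjusted p = 0.0397), and with the index as a covariate neither passed, at -0.74 (adjusted p = 0.0606) and -0.70 (adjusted p = 0.237). Of 6 hair follicle genes, 0 passed in Holstein-Friesian animals, and in Brahman animals SELENBP1, a selenium-binding protein, fell by 1.85 (adjusted p = 0.0104, limma) and no other passed. SELENBP1 was at -0.78 (adjusted p = 0.242) with the index as a covariate and at -1.24 (adjusted p = 0.00171) without infested Brahman 1. Without both arrays of lowest index 0 hair follicle genes passed in Holstein-Friesian and 1 fell in Brahman animals. Of 5 other keratins of stratified epithelium, 0 passed in either breed, and KRT4 and KRT76 among them were below every array median. KRT1, KRT6A, KRT6C, KRT16, IVL, LOR and FLG had no probe set with that symbol.

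Markers of other tissue in the punch were followed too, and those of dermal fibroblasts differed between the groups. The mean level of 15 dermal fibroblast genes, relative to naive animals, was 0.35 to 0.98 in infested Brahman against -0.27 to 0.02 in naive Brahman arrays, and 0.43 to 0.79 in infested against -0.05 to 0.25 in naive Holstein-Friesian arrays. Of these 15 genes 8 rose in Brahman and 4 in Holstein-Friesian animals, where 9.54% and 2.68% of all probe sets rose, and 0 fell. With the replicate block 2 of the 4 were lost, DPT (adjusted p = 0.0728, limma) and PDGFRA (0.0548). Without both arrays of lowest index 4 rose and 1 fell in Holstein-Friesian animals and 8 rose and 0 fell in Brahman animals. In Brahman animals adjusted p (limma) was up to 0.106 for DCN, 0.104 for COL6A1 and 0.099 for PDGFRA over the alternatives other than leaving out 1 array. DCN was also lost in 3 of 12 fits with 1 array left out. COL1A1, COL1A2, COL3A1, COL5A2 and LUM passed in Brahman animals under every alternative. The mean level of 11 muscle genes was -0.91 to -0.78 in infested Brahman against -1.09 to 1.66 in naive Brahman arrays, and -0.98 to -0.74 in infested against -1.06 to -0.09 in naive Holstein-Friesian arrays. The infested muscle levels lay within the naive range in both breeds. Of the 11 muscle genes, 0 passed in Holstein-Friesian animals, against 5.02% of all probe sets. In Brahman animals 1 rose (CKM) and 3 fell (MYL1, TNNC2 and TNNI2), against 9.54% and 10.2% of all. With 1 array left out the adjusted p (limma) of those that fell was up to 0.129, 0.0997 and 0.0953. The part of fibroblast and muscle tissue in the keratin values was not tested.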

How the data were processed

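The deposited table gives log2 expression for each probe set on each array. Per the submitters' processing notes the authors used RMA, which subtracts background, equalises array distributions and summarises the probes of a set. Its version is not given in the sources used here, and the range of the values set the log2 scale (array medians 6.58 to 6.73). After removal of 112 controls from 24128 probe sets, 24016 were tested without a signal filter, and 13292 of them had 1 symbol, 86 several and 10638 none. No detection calls were used, so which signals exceed background is unknown.

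A model of 4 group means was fitted to all 12 arrays with limma 3.58.1 (R 4.3.3; residual df 8, prior df 3.03). Two-sided p-values were adjusted over all probe sets by Benjamini-Hochberg, separately for 5 comparisons, at 0.05, and the fit was tested on simulated data. The members and lists were chosen with earlier results of these data known. The text names all member probe sets, up to 4 list genes or keratins per list and comparison that passed, by smallest p, and the 3 genes of nearest profile to each member. A list uses the probe set of highest mean for each gene. The integrity index averages the 5′ minus 3′ log2 signal of 5 control transcripts.

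Replicate numbers recur in the 4 groups and no label explains them. Same-numbered deviations correlated by 0.11 to 0.25 for infested and naive Holstein-Friesian arrays and by -0.19 to -0.05 for Brahman arrays. Only the Holstein-Friesian arrays were all over 0.1, the limit set for treating numbers as paired. Pairing is not shown by this, since infested and naive animals differed in age. Same-numbered naive arrays of different breeds correlated by 0.02 to 0.33. Alternatives were a replicate block, a 40 percent low-signal filter, median centring, only the 6 arrays of a comparison, the index as a covariate, and leaving out arrays. Averages over breeds or over infestation, and list counts without low-index arrays, were added after seeing the data. No array repeated another.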

Additional observations from a re-analysis of the deposited data

How the results depend on the processing

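No member value that passed in any fit turned its sign under the alternatives fixed at the outset, and 55 of 707 member values changed sign while passing in neither fit. The replicate block changed no member call in the 5 planned comparisons, with KRT6B at an adjusted p of 0.0488 (limma) in Brahman animals; the call averaged over breeds was lost (0.0536). The count of member probe sets passing in infested against naive Holstein-Friesian animals, 0, was 1 without the 2 arrays of lowest index (the dimmer KRT5 probe set). In that fit 17% of all probe sets passed. In Brahman animals the count of 1 was 0 with the integrity index as a covariate and 0 without the 2 arrays of lowest index, and 0 to 1 with each array left out. Between naive breeds the count of 0 was 0 to 1 with each array left out. The KRT6B spread ratio of 4.26 was 2.07 to 6.12 with each array left out. The low-signal filter removed the dimmer KRT15 probe set.

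The member probe sets are so few that movement in their count cannot be compared with movement in the count of all probe sets. The number of all probe sets passing also moved with the processing. In Holstein-Friesian animals it was 1206, with 2022 under the covariate, 4076 without the 2 arrays, and 157 to 2563 with each array left out. In Brahman animals it was 4753, with 1808 under the covariate, 3000 from the 6 arrays alone, and 2216 to 5567 with each array left out. For the breed difference the count of 1 was 0 with the block, 1131 without the 2 arrays, and 0 to 390 with each array left out. For naive breeds the count of 6 was 17 under the covariate, 66 without the 2 arrays, 64 from the 6 arrays alone, and 5 to 37 with each array left out. For infested breeds that of 40 was 25 with the low-signal filter, 2200 without the 2 arrays, 1 from the 6 arrays alone, and 11 to 1235 with each array left out. Averaged over breeds, infestation gave 6689, and 4135 under the covariate. Averaged over infestation, breed gave 33, with 20 under the block, 55 under the covariate and 879 without the 2 arrays. The causes were not tested.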
